A study of Mus musculus with 6 samples.

Results

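The tumor necrosis factor (TNF) superfamilies are a set of cytokines and the receptors that bind them. The members described here are the genes whose symbol begins with Tnfsf (ligands) or Tnfrsf (receptors) and that are named alone by at least 1 probe set of the array. There were 26 such genes among 18192 genes measured, comprising 7 ligands, 18 receptors and 1 antisense transcript, Tnfsf13os, which the symbol rule takes in although it encodes no ligand. Each gene was represented by its brightest probe set by the mean of the 6 arrays, so the choice did not use the difference between genotypes. RNA was profiled from mouse embryonic fibroblasts (MEFs), which are stromal cells grown from embryos, of wild-type mice (Atxn3-WT, 3 arrays) and of mice lacking Atxn3 (Atxn3-KO, 3 arrays). Atxn3 encodes ataxin-3, a deubiquitinase. Cells of both genotypes were grown in the same serum-containing medium. The labels of the array samples name no added agent, including any TNF ligand. The design of the null allele, the age of the embryos and whether replicates came from separate embryos were not given in the sources used here. The methods call the replicates biological without naming their source, so that p-values reflect the variation among these samples alone, which could be that of separate cultures or embryos.

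Ligands of the TNF superfamily are mostly trimeric proteins on the cell surface, from which some are shed, and their receptors carry cysteine-rich repeats outside the cell. Receptors with an intracellular death domain can assemble complexes that activate caspases, receptors without one bind TRAF adaptors and activate NF-κB and kinase cascades, and decoy receptors bind ligand without passing on a signal. Fibroblasts are classical responders to TNF and to TWEAK, whereas many other pairs of the superfamilies are known from lymphocytes, dendritic cells and bone.

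The values are log2 levels after robust multi-array average (RMA) normalization, and differences are Atxn3-KO minus Atxn3-WT. The median log2 level was 5.97 to 6.002 on the 6 arrays. Atxn3 itself changed by -3.08 on the log2 scale (standard error, SE, 0.096, limma adjusted p = 2.09e-06) for the brighter of its probe sets. The 8 fibroblast markers all lay above the median of every array, with a log2 summed level of 16.15 to 16.17 in Atxn3-WT and 15.95 to 16.01 in Atxn3-KO MEFs, 4 of the 8 were called lower and 1 higher, and Thy1 was lower by far in Atxn3-KO MEFs (log2 fold change -4.21, standard error 0.052, adjusted p = 2.98e-08 from limma). Of the markers of other cells, 0 of 6 for macrophages, 0 of 5 for endothelium and 0 of 5 for lymphocytes were called by limma, with 1, 0 and 0 at an unadjusted p under 0.05. Their summed levels were 7.94 to 8.04, 7.51 to 7.55 and 7.86 to 7.97 in Atxn3-WT and 7.99 to 8.04, 7.52 to 7.59 and 7.86 to 7.91 in Atxn3-KO MEFs. Csf1r, Kdr and Cd4, 1 marker from each of these lists, lay above the median on every array, and 4 of each list lay below it on every array. Few genes are called at such levels: 4.45% of those under the 25th percentile on every array, and 10.3% of the others below the median on every array. Above the median on every array, where the fibroblast markers lay, 44.7% of all genes were called in either direction. Among 5 epithelial markers Epcam was called higher (log2 fold change 0.38, adjusted p = 0.00167 from limma) and lay above the median on every array. The other 4 were not called and lay below the median on every array, with Cdh1 under the 25th percentile throughout. The summed level of the 5 was 8.89 to 8.97 in Atxn3-WT and 9.17 to 9.30 in Atxn3-KO MEFs. The part of these marker changes in the results below was not tested.

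Both classical TNF receptors, the 4-1BB receptor with its ligand, osteoprotegerin and a decoy receptor were expressed at a higher level in Atxn3-KO than in Atxn3-WT MEFs, and the death receptor DR6 at a lower level. Of 26 members, 6 were higher (Tnfrsf1b, Tnfrsf9, Tnfrsf1a, Tnfrsf11b, Tnfsf9 and Tnfrsf23), 1 was lower (Tnfrsf21) and 19 were not called, a call being a limma adjusted p under 0.05. The share of members called was 26.9%, against 31.8% of all genes. By direction, 17.1% of all genes were called higher and 14.7% lower. The stricter thresholds of the study's methods were 2-fold or more with an adjusted p no higher than 0.001. With the probe set used for each gene, Tnfrsf1b alone passed them among the members. The study applied them to every probe set, and a dimmer probe set of Tnfrsf11b also passed. With 1 probe set per gene, 1.28% of all genes were higher and 0.649% lower by these thresholds. At an unadjusted p under 0.05 from limma, 8 members were higher and 3 lower, against 22.5% and 20.1% of all genes. The median log2 fold change was 0.034 over the members and 0.0021 over all genes. The 3 Atxn3-KO arrays lay wholly above the 3 Atxn3-WT arrays for 7 members and wholly below for 3, against 25.3% and 23.9% of all genes. Whether the shares of members and of all genes differ was not tested. RNA from whole cultures cannot tell a change in each cell from a change in the share of cells that express a gene.

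**Figure D1:**
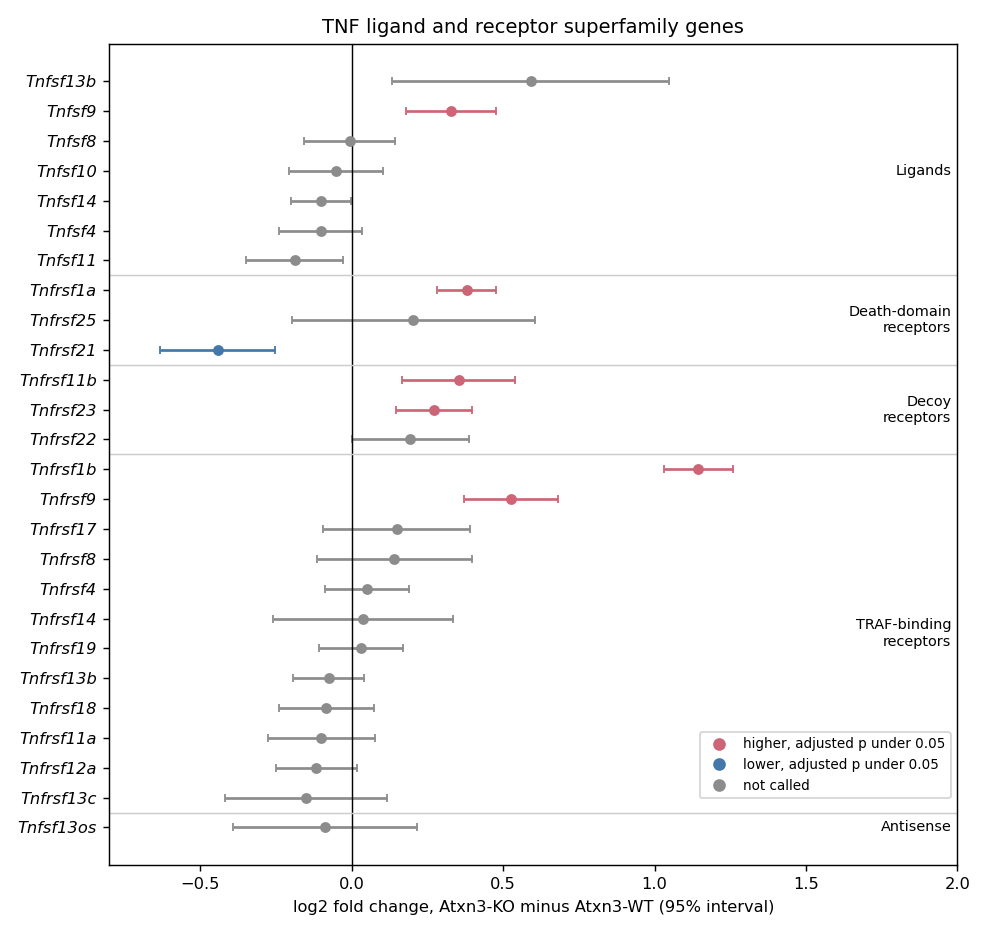
Difference in log2 level, Atxn3-KO minus Atxn3-WT (horizontal axis), for the 26 members, grouped by role; points are limma estimates, bars are 95% confidence intervals, and colour gives the call at an adjusted p under 0.05 over all probe sets. Tnfrsf1b stands at 1.15, the other 5 members called higher lie between 0.27 and 0.53, and Tnfrsf21 lies at -0.44.

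The members lay at many levels on the arrays. Of these, 10 lay above the median on every array and 6 of these were called, against 44.7% of all genes in that range. The other 16 members, of which 15 lay below the median on every array and Tnfrsf13c crossed it, included 1 called member, Tnfrsf11b, against 11.8% of all genes outside the upper range. Tnfsf4, Tnfrsf13b and Tnfrsf17 were in the lowest part of the distribution (under the 25th percentile) on each array. Placing genes by level compares their probe sets, which differ in their response, so these placements are approximate.

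The regions upstream of 3 receptors called higher, Tnfrsf1b, Tnfrsf1a and Tnfrsf9, are shown for reference. They run from 250 bases before to 50 after the RefSeq start (assembly GRCm38.p6), read 5′ to 3′ on the strand of the gene. Such a window was available for 5 of the 7 called members. Capitals mark the GC box GGGCGG and an NF-κB form that reads GGG, any pair of bases, then TTTCC, searched on both strands.
Tnfrsf1b (chr4:145246821-145247120, minus strand): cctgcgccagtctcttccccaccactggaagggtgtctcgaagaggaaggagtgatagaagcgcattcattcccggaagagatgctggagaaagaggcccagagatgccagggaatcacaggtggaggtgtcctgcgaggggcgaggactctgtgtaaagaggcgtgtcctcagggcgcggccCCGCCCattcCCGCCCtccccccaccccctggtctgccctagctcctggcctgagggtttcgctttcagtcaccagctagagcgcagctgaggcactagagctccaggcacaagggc
Tnfrsf1a (chr6:125349473-125349772, plus strand): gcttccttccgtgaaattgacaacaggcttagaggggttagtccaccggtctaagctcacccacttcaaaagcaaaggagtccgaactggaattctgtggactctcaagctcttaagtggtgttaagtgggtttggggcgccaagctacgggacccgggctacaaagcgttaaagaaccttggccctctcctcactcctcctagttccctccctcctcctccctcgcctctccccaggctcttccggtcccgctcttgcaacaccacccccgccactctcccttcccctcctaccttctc
Tnfrsf9, downstream start (chr4:150927749-150928048, plus strand): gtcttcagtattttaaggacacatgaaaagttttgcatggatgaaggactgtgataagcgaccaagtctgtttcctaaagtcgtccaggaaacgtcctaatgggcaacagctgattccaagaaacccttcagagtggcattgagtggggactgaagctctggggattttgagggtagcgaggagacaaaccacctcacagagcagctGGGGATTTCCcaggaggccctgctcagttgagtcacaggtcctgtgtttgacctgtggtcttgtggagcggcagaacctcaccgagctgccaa
The Tnfrsf1b window held 2 GC boxes and no match to the NF-κB form, the Tnfrsf1a window held neither, and the Tnfrsf9 window held 1 match to the NF-κB form, GGGGATTTCC, whose first base lies 43 bases before the start. The window of the other Tnfrsf9 start (chr4:150919905-150920204, plus strand), which is not printed, held 1 GC box and no match to the NF-κB form. Which of the Tnfrsf9 starts these cells use was not tested. Of all 32851 promoter windows of this length, 35.7% held the GC box and 1.63% the NF-κB form. Among the 25 windows of the 21 members with an entry, 11 held the GC box and 2 the NF-κB form, the other in a window of Tnfrsf25, a member that was not called. The AP-1 form TGANTCA was found in 5 of the 25 windows and in 7.81% of all windows, and the TATA box TATAAA in 3 of the 25 and in 13.6% of all. GC content was 62.7% for Tnfrsf1b, 57.0% for Tnfrsf1a and 51.0% for the Tnfrsf9 window shown, and ranged from 43.7% to 76.7% over the windows of members. A match of letters is a description and not a binding site.

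Among 12 receptors that bind TRAF adaptors, 2 were called higher, Tnfrsf1b and Tnfrsf9, against 17.1% of all genes. Tnfrsf1b encodes TNF receptor 2, which responds best to membrane-bound TNF. It read 8.14, 8.08 and 8.17 in Atxn3-WT MEFs (log2 levels of replicates 1, 2 and 3, the order used throughout) and 9.29, 9.22 and 9.31 in Atxn3-KO MEFs. The arrays of each genotype lay close together, with a wide gap between the genotypes. The means were 8.13 ± 0.047 (SD, n = 3) and 9.27 ± 0.045 (SD, n = 3), and the log2 fold change was 1.15 (SE 0.048, limma adjusted p = 6.77e-06), a 2.21-fold higher level. A second Tnfrsf1b probe set, at 6.44, 6.56 and 6.60 in Atxn3-WT and 6.98, 7.07 and 6.88 in Atxn3-KO MEFs, rose by less, with a log2 fold change of 0.44 (SE 0.067, limma adjusted p = 0.00272). The mean of both probe sets gave 0.79, below the 2-fold threshold.

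Tnfrsf9 encodes 4-1BB, a costimulatory receptor best known on activated T cells. The probe set used for the gene read 7.31, 7.43 and 7.38 in Atxn3-WT and 7.94, 7.98 and 7.78 in Atxn3-KO MEFs. All 3 Atxn3-KO arrays were above all 3 Atxn3-WT arrays, and the log2 fold change was 0.53 (SE 0.066, limma adjusted p = 0.00115). A dimmer probe set of Tnfrsf9 gave 4.19, 4.19 and 4.91 in Atxn3-WT and 5.64, 5.53 and 5.67 in Atxn3-KO MEFs, with Atxn3-WT replicate 3 apart from the other arrays of its group. It had a log2 fold change of 1.18 (SE 0.19, limma adjusted p = 0.00326), which is not exact because Atxn3-WT replicates 1 and 2 lay under the lower quartile of their arrays. The third probe set of the gene had 0.16 (SE 0.069, limma adjusted p = 0.148).

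The other 10 TRAF-binding receptors were not called. Tnfrsf12a, which encodes FN14, the receptor for TWEAK and a gene of injured and growing tissue, read 11.73, 11.80 and 11.77 in Atxn3-WT and 11.56, 11.65 and 11.74 in Atxn3-KO MEFs. It lay above the 75th percentile of every array, the groups overlapped, and the log2 fold change was -0.12 (95% confidence interval -0.25 to 0.017, adjusted p = 0.189 from limma). Its second probe set gave -0.14 (adjusted p = 0.128). With a variance trend along intensity, Tnfrsf12a had an adjusted p of 0.0385 from limma. Tnfrsf4, which encodes OX40, a receptor of activated T cells, read 6.93, 6.98 and 7.03 in Atxn3-WT and 6.998, 7.13 and 6.96 in Atxn3-KO MEFs. The log2 fold change of Tnfrsf4 was 0.051 (95% confidence interval -0.089 to 0.19). Tnfrsf11a, which encodes RANK, the receptor that drives osteoclast formation, had -0.10 (95% confidence interval -0.28 to 0.076) and, for its other probe set, -0.18. Tnfrsf19, which encodes TROY, a receptor of embryonic skin and nervous system, had 0.031, and its other probe sets had 0.22 and 0.077. The receptors of B cell factors showed changes of -0.076 for Tnfrsf13b (TACI), -0.15 for Tnfrsf13c (the BAFF receptor) and 0.15 for Tnfrsf17 (BCMA). The lymphocyte receptors Tnfrsf8 (CD30), Tnfrsf14 (HVEM) and Tnfrsf18 (GITR) had 0.14, 0.038 and -0.083. Among these 10 receptors each 95% interval included 0. Without Atxn3-WT replicate 3, Tnfrsf17 had 0.27 and an adjusted p of 0.0198 from limma, in a range of 0.0198 to 0.675 over the arrays left out in turn.

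**Figure D2:**
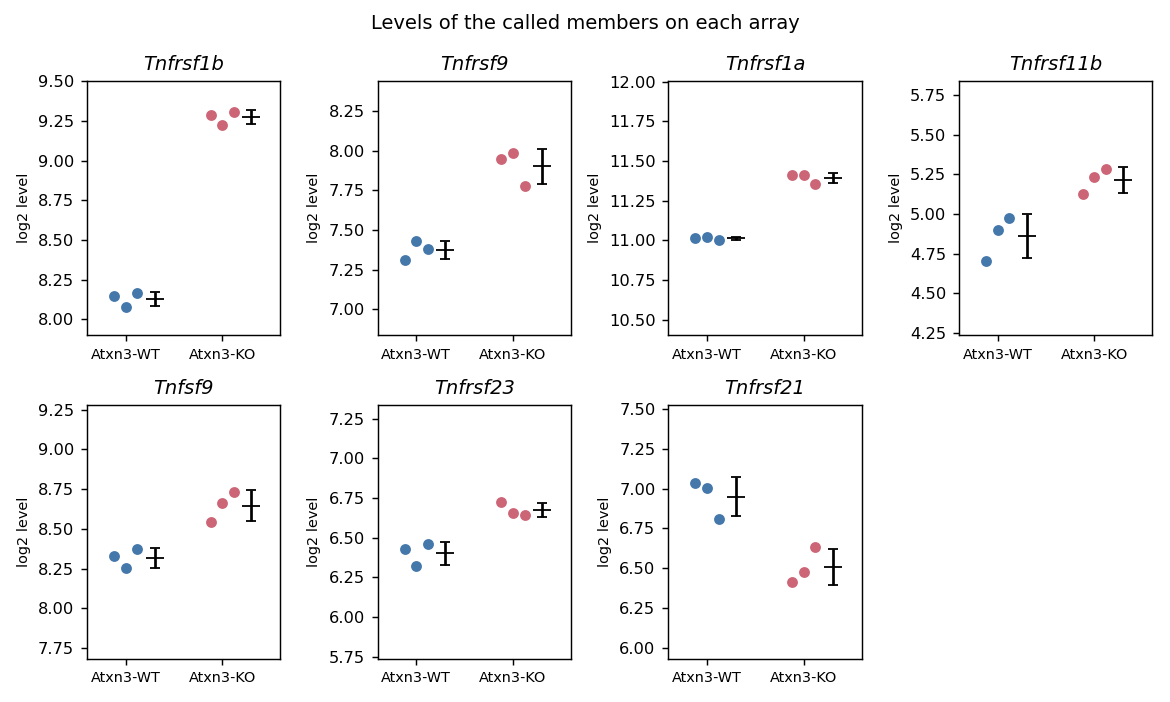
Log2 level (vertical axes, each spanning the same range) on each array for the 7 called members; blue points are the 3 Atxn3-WT arrays, red points the 3 Atxn3-KO arrays, and black bars the mean ± SD. In each panel the genotypes do not overlap, and the gap is widest for Tnfrsf1b.

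Of the 3 death-domain receptors 1 was called higher and 1 lower, against 17.1% and 14.7% of all genes. Tnfrsf1a encodes TNF receptor 1, the receptor through which soluble TNF reaches most cells. On the Atxn3-WT arrays its level was 11.02, 11.02 and 11.01, and on the Atxn3-KO arrays 11.41, 11.41 and 11.36. The replicates within a genotype were nearly equal, and the log2 fold change of 0.38 (SE 0.041, limma adjusted p = 6.26e-04) equals a 1.30-fold higher level. Tnfrsf21 encodes DR6, a death receptor studied in axon pruning and in T cells. Its probe set read 7.03, 7.01 and 6.81 in Atxn3-WT and 6.41, 6.48 and 6.63 in Atxn3-KO MEFs. Every Atxn3-KO array was below every Atxn3-WT array, and the log2 fold change was -0.44 (SE 0.081, limma adjusted p = 0.00652). The other probe set of Tnfrsf21 had -0.085 (SE 0.080, limma adjusted p = 0.503), and the mean of both had -0.26 (adjusted p = 0.00318 from limma). Tnfrsf25 encodes DR3, the receptor for TL1A. It had levels of 5.16, 5.04 and 5.04 in Atxn3-WT and 5.21, 4.94 and 5.70 in Atxn3-KO MEFs, with replicate 3 of the latter apart, and a log2 fold change of 0.20 (95% confidence interval -0.20 to 0.61).

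The decoy receptors measured all had estimates above 0, and 2 of 3 were called higher, against 17.1% of all genes. Tnfrsf11b encodes osteoprotegerin, a secreted decoy that binds RANKL and TRAIL and protects bone. The probe set used for it gave 4.71, 4.90 and 4.98 in Atxn3-WT and 5.12, 5.23 and 5.29 in Atxn3-KO MEFs, below the median of every array. The genotypes did not overlap, and the log2 fold change was 0.35 (SE 0.080, limma adjusted p = 0.0158). This call was lost without Atxn3-KO replicate 2 (adjusted p = 0.0507) and without Atxn3-KO replicate 3 (adjusted p = 0.0515), in a range of 1.23e-05 to 0.0515 over the alternatives. The other Tnfrsf11b probe set read 2.99, 2.75 and 2.96 in Atxn3-WT and 4.30, 4.39 and 4.30 in Atxn3-KO MEFs, a change of 1.43 (SE 0.071, limma adjusted p = 1.61e-05) that passed the thresholds of the methods. The mean levels of both genotypes at that probe set were under the lower quartile of each array, which leaves this fold change inexact. The mean of both probe sets gave 0.89.

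Tnfrsf22 and Tnfrsf23 encode the mouse decoy receptors for TRAIL and lie next to each other, with 0 protein-coding genes between them in RefSeq. Tnfrsf23 read 6.43, 6.32 and 6.46 in Atxn3-WT and 6.72, 6.65 and 6.64 in Atxn3-KO MEFs. These groups did not overlap, and the log2 fold change was 0.27 (SE 0.054, limma adjusted p = 0.00887). For Tnfrsf22 the levels were 7.08, 6.97 and 6.97 in Atxn3-WT and 7.38, 7.16 and 7.08 in Atxn3-KO MEFs, with the lowest Atxn3-KO array below the highest Atxn3-WT array. The log2 fold change of Tnfrsf22 was 0.19 (SE 0.082, limma adjusted p = 0.136), and its other probe sets had 0.21 and 0.20. Averaged over its 3 probe sets, Tnfrsf22 had 0.20 and was called (adjusted p = 0.00843 from limma). Both genes belong to 1 family of near copies, so that their values are uncertain where probes match both.

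**Figure D3:**
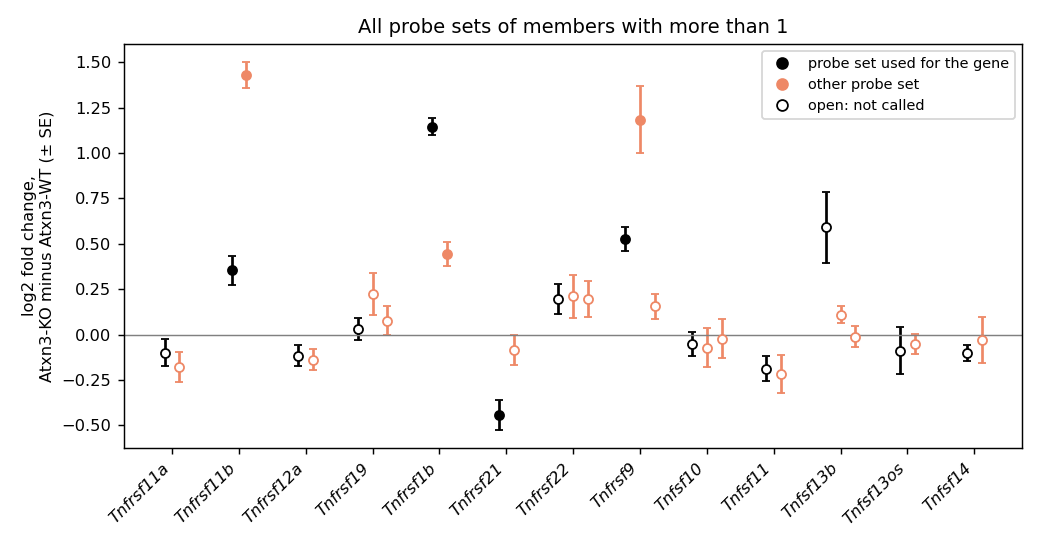
Log2 fold change (vertical axis) with its standard error for every probe set of the 13 members that have more than 1, ordered within a gene from the brightest to the dimmest; black marks the probe set used for the gene, orange the others, and open symbols those not called at an adjusted p under 0.05. Tnfrsf11b and Tnfrsf9 have another probe set with a higher estimate than the one used, Tnfrsf1b one with a lower estimate. The third probe set of Tnfrsf9 (0.16) and the other of Tnfrsf21 (-0.085, against -0.44 for the one used) were not called.

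The members had 44 probe sets in all, and 18 of these were not the one used for the gene. Of the 18, 3 were called higher, namely those of Tnfrsf1b, Tnfrsf9 and Tnfrsf11b described above, against 12.5% of all probe sets. By limma 0 were called lower, also at an unadjusted p under 0.05 except for the second probe set of Tnfrsf12a. The share of all probe sets called lower is not given here, so the directions are not compared. No member had probe sets called in both directions.

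Of 7 ligands 1 was called, against 31.8% of all genes in either direction. Tnfsf9 encodes the 4-1BB ligand, which binds the product of Tnfrsf9. Its levels were 8.33, 8.25 and 8.37 in Atxn3-WT and 8.54, 8.66 and 8.73 in Atxn3-KO MEFs. The arrays of the genotypes did not overlap, and the log2 fold change was 0.33 (SE 0.063, limma adjusted p = 0.00779), so that ligand and receptor of this pair were both higher. Tnfsf13b encodes BAFF, a survival factor for B cells. It read 4.14, 4.87 and 4.82 in Atxn3-WT and 5.37, 5.23 and 5.01 in Atxn3-KO MEFs, with Atxn3-WT replicate 1 apart from its group. Its estimate was the highest among the ligands, 0.59 (95% confidence interval 0.13 to 1.05), but its adjusted p was 0.0642 from limma. Without Atxn3-WT replicate 1 the estimate for Tnfsf13b was 0.36 (adjusted p = 0.0662), and with a variance trend along intensity the adjusted p was 0.0122, in a range of 0.0122 to 0.173 over the alternatives. The other Tnfsf13b probe sets had 0.11 and -0.012. Averaged over its 3 probe sets, Tnfsf13b had 0.23 and was called (adjusted p = 0.0357 from limma).

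The remaining ligands had small estimates at levels below the median of every array. Tnfsf11, which encodes RANKL, the ligand of both Tnfrsf11a and Tnfrsf11b products, read 4.79, 4.62 and 4.67 in Atxn3-WT and 4.58, 4.40 and 4.54 in Atxn3-KO MEFs. These groups did not overlap, but the log2 fold change of -0.19 (SE 0.068) had an adjusted p of 0.0869 from limma, and the mean of its probe sets had -0.20 (adjusted p = 0.0312). Tnfsf14, which encodes LIGHT, read 5.57, 5.54 and 5.61 in Atxn3-WT and 5.47, 5.46 and 5.48 in Atxn3-KO MEFs, and its estimate of -0.10 had an adjusted p of 0.128. Tnfsf10, which encodes TRAIL, an inducer of apoptosis, had -0.053 (95% confidence interval -0.21 to 0.10). Tnfsf4 (the OX40 ligand) had -0.10 and Tnfsf8 (the CD30 ligand) had -0.0063. The antisense transcript Tnfsf13os had -0.089 (95% confidence interval -0.39 to 0.22).

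Set side by side, a ligand and its receptor were both called in 1 of the pairs of members in which both were measured. For 4-1BB, the ligand had 0.33 and the receptor 0.53. For RANKL, the ligand had -0.19, the signalling receptor Tnfrsf11a -0.10 and the decoy Tnfrsf11b 0.35, and only the decoy was called. For TRAIL, the ligand had -0.053 and the decoys Tnfrsf11b, Tnfrsf22 and Tnfrsf23 had 0.35, 0.19 and 0.27. For BAFF, the ligand had 0.59 and its receptors Tnfrsf13b, Tnfrsf13c and Tnfrsf17 had -0.076, -0.15 and 0.15, none of them called. For OX40, CD30 and LIGHT, neither the ligands (-0.10, -0.0063 and -0.10) nor the member receptors Tnfrsf4, Tnfrsf8 and Tnfrsf14 (0.051, 0.14 and 0.038) were called. Receptors outside the members were not paired with these ligands here.

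Several members are neighbours on the chromosome, in the RefSeq order of assembly GRCm38.p6. Tnfrsf1b and Tnfrsf8 adjoin each other with 0 protein-coding genes between them, and had log2 fold changes of 1.15 and 0.14. Tnfsf9, Cd70 and Tnfsf14 follow each other directly and had 0.33, -0.0046 and -0.10. Ltbr and Tnfrsf1a, separated by 1 protein-coding gene, were both called higher, with 0.61 and 0.38, while Cd27, on the other side of Ltbr, had 0.045. Whether these differences between neighbours exceed chance was not tested.

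Superfamily genes that carry other symbols included both called and uncalled receptors. Of 15 such genes, 5 were higher, 0 were lower and 10 were not called by limma, against 17.1% of all genes higher and 14.7% lower, with 5 higher and 2 lower (Ltb and Cd40) at an unadjusted p under 0.05. The list had a median log2 fold change of 0.045. Eda2r, a receptor for an isoform of ectodysplasin, read 6.06, 5.99 and 5.92 in Atxn3-WT and 6.81, 6.88 and 7.09 in Atxn3-KO MEFs. Its log2 fold change was 0.94 (SE 0.080, limma adjusted p = 2.02e-04). Fas, the death receptor for Fas ligand, had 0.65 (SE 0.050), from 7.80, 7.82 and 7.70 to 8.41, 8.47 and 8.40. Ltbr, the lymphotoxin β receptor of stromal cells, had 0.61 (SE 0.046), from 10.14, 10.14 and 10.22 to 10.76, 10.77 and 10.82. Relt, an orphan receptor, had 0.47 (SE 0.093, limma adjusted p = 0.00863). Eda, chosen after its value was seen as the fifth called gene, encodes ectodysplasin and had 0.26 (adjusted p = 0.0192). None of the 5 reached the thresholds of the methods. Tnf itself read 5.49, 5.57 and 5.63 in Atxn3-WT and 5.53, 5.35 and 5.46 in Atxn3-KO MEFs, with a log2 fold change of -0.11 (95% confidence interval -0.26 to 0.032, adjusted p = 0.239), and the ligands Lta, Ltb and Fasl had -0.063, -0.40 and 0.11. Without Atxn3-KO replicate 1, 1 gene of this list was called lower.

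Adaptors and enzymes that act below the receptors moved both ways. Of 23 genes measured, 5 were higher, 6 were lower and 12 were not called by limma, with a median log2 fold change of 0.0066. Of the 23 genes, 22 lay above the median of every array, a range in which 44.7% of all genes were called in either direction. Ripk3, the kinase that starts necroptosis, read 10.05, 10.10 and 10.17 in Atxn3-WT and 8.76, 8.87 and 8.85 in Atxn3-KO MEFs. Its log2 fold change of -1.28 (SE 0.053, limma adjusted p = 6.33e-06) was the only one of the list past the thresholds of the methods. Tank, a TRAF-binding regulator of NF-κB, had -0.49 (SE 0.052). Tnfaip3, the deubiquitinase A20 that limits NF-κB signalling, had 0.38 (SE 0.046), and Traf1, a TRAF adaptor induced by NF-κB, had 0.35 (SE 0.060). Adaptors that join directly to the death domain were not called, at -0.085 for Tradd and 0.064 for Fadd. Casp8, the caspase that death receptors activate, was called lower at -0.31 (adjusted p = 0.0033), while Cflar, its inhibitor, had 0.0066 and was not called. The count of higher genes was 3 in place of 5 without Atxn3-KO replicate 2, without Atxn3-WT replicate 1 and without Atxn3-WT replicate 2.

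Genes that TNF is known to induce in fibroblasts were more often higher than lower. Of 24 such genes, 13 were higher, 4 were lower and 7 were not called by limma, against 17.1% and 14.7% of all genes, and the median log2 fold change was 0.23. In this list 15 genes lay above the 75th percentile of every array, a range in which 22.5% of all genes were called higher and 22.5% lower. The list was written with earlier results of these data known and holds genes already known to rise here, so its count is not independent evidence of a direction. Cxcl1, Cxcl5 and Ccl7, chemokines for neutrophils and monocytes, had log2 fold changes of 1.59 (SE 0.049), 1.52 (SE 0.060) and 1.28 (SE 0.045), and Ccl5 had 1.16 (SE 0.051). Ccl7 read 9.81, 9.81 and 9.82 in Atxn3-WT and 11.03, 11.13 and 11.11 in Atxn3-KO MEFs. The 4 lower genes, named after their values were seen, were Icam1 with -1.06, Cxcl10 with -0.36, Ccl20 with -0.36 and Mmp9 with -0.21. Among NF-κB subunits and feedback regulators of the list, limma called Tnfaip3 (0.38, adjusted p = 0.00107) and Nfkbia, an inhibitor of NF-κB (0.22, adjusted p = 0.00633), higher. Those not called were Relb at -0.051 (adjusted p = 0.508), Birc3 at 0.035 (adjusted p = 0.675) and Nfkb2 at 0.0036 (adjusted p = 0.965). Tnfaip3 and Birc3 are also in the list of adaptors, so they are counted in both lists.

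**Figure D4:**
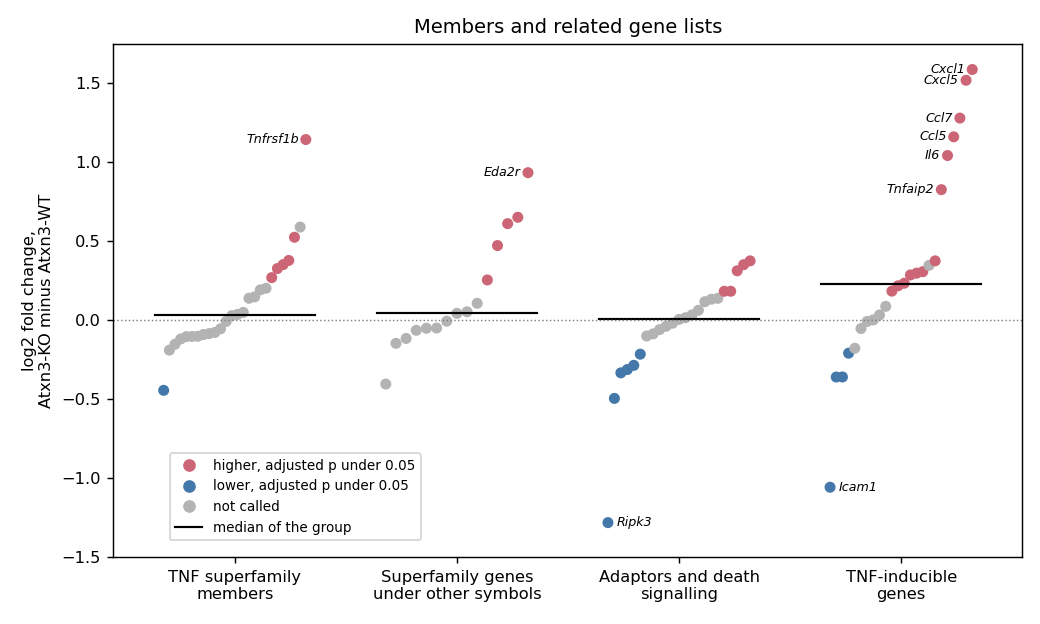
Difference in log2 level, Atxn3-KO minus Atxn3-WT (vertical axis), for each gene of the members and of the 3 related lists, ordered within a list; red and blue mark genes called higher and lower at an adjusted p under 0.05, grey those not called, and the black line is the median. The median is 0.034 for the members, 0.045 for superfamily genes under other symbols, 0.0066 for adaptors and 0.23 for the TNF-inducible genes. Tnfaip3 and Birc3 appear in both the adaptor and the TNF-inducible lists.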

How the data were processed

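RNA of 6 MEF samples, 3 of each genotype as labelled, had been hybridised to Affymetrix mouse arrays. The authors deposited log2 values processed by RMA, in which quantile normalization hides any shift shared by most genes. Versions of RMA and limma are not given in the sources used here. A linear model was fitted to these values in limma 3.58.1 (R 4.3.3), giving each array the same weight because the weights of the authors' model are not named. Benjamini-Hochberg adjustment ran over 45037 probe sets, without the 64 controls and without a filter on level. The platform annotation supplied gene names. Of 34945 probe sets that name 1 gene, 34741 had a RefSeq match (GRCm38.p6). A probe set naming several genes stood for none of them, 5 superfamily genes without a probe set of their own are not analysed here, and 1 further receptor gene is not reported here. The members and lists were chosen with earlier results of these data known. Per-array values are given for called members and for the 3 uncalled members with the highest mean level, and up to 4 called genes of each list with the largest change are named. Further genes and per-array values were chosen after they were seen. The model was tested on simulated data. The 17 alternatives covered weights, a block by replicate number, renormalization, low probe sets, variance models, thresholds, the probe set rule and each array left out. Precision is limited by the number of arrays.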

Additional observations from a re-analysis of the deposited data

How the results depend on the processing

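Of the 7 called members, 6 kept their direction and an adjusted p under 0.05 under each alternative that gave them a value, and Tnfrsf11b lost its call without Atxn3-KO replicate 2 or replicate 3. With the thresholds of the methods on the probe set used for each gene, 1 member was higher and 0 were lower. By the same rule 0 superfamily genes under other symbols were higher, 0 adaptors were higher and 1 was lower. Of the TNF-inducible genes, 5 were higher and 0 lower. At an adjusted p under 0.01, 3 adaptors were higher and 2 TNF-inducible genes were lower. With an intensity trend, and with the mean of all probe sets of a gene, 7 and 8 members were higher, respectively. In both settings 2 members were lower (the second being Tnfrsf12a and Tnfsf11, respectively), as was 1 superfamily gene under another symbol. Median centring, quantile normalization again and the replicate block each also called 1 gene of the latter list lower. The replicate block called 3 adaptors higher. Same-numbered arrays of the genotypes did not deviate together (correlations 0.021, -0.023 and -0.036). These correlations cannot show whether samples of 1 number were handled together, which the labels do not say. Leaving out each array in turn gave 5 to 7 members higher and 1 lower, 4 to 5 superfamily genes under other symbols higher and 0 to 1 lower, 3 to 5 adaptors higher and 5 to 6 lower, 12 to 14 TNF-inducible genes higher and 3 to 5 lower, and a median log2 fold change over the members of -0.0096 to 0.053. With probe sets below the median level left out, the median over the 10 members that remained was 0.23. No called member changed sign, and for the lists counts alone were compared. Apart from the thresholds of the methods, the share of all genes called under each alternative is not given here. Changes in these counts are therefore not read as results about the members or lists.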

Other observations

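The annotation assigns 3 probe sets to several superfamily genes at once, and no gene can be named from them. The probe set assigned jointly to Tnfsfm13, Tnfsf13 and Tnfsf12, the genes of APRIL, TWEAK and their read-through transcript, read 7.98, 7.85 and 7.84 in Atxn3-WT and 8.21, 8.30 and 8.30 in Atxn3-KO MEFs, a change of 0.38 (SE 0.056, limma adjusted p = 0.00241). That assigned to Tnfsfm13 and Tnfsf12 had 0.16 (SE 0.047, limma adjusted p = 0.0431), from 8.52, 8.55 and 8.58 to 8.76, 8.70 and 8.66. That assigned to Tnfrsf22 and Tnfrsf23 had 0.23 (SE 0.057, limma adjusted p = 0.0223), from 8.91, 8.72 and 8.84 to 9.06, 9.07 and 9.04. On each of these the Atxn3-KO arrays lay above the Atxn3-WT arrays.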
